A study of Mus musculus with 6 samples.

Results

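The mitochondrial ribosomal protein genes were the 78 features with a symbol of the form Mrpl or Mrps, a number and at most 1 further letter, and with a count of at least 10 in at least 3 of the 6 libraries. All 78 features with such a symbol met that minimum, of 36706 features listed and 12968 genes tested. The libraries came from macrophages grown from the bone marrow of WT mice in medium with M-CSF, the cytokine that drives macrophage growth. Of the 6 libraries, 3 came from untreated cells and 3 from cells that received IFN-γ, the macrophage-activating cytokine, for 3 h. The untreated libraries are labelled 3 h as well. The labels give no age, sex or strain of the mice, and do not say whether replicates are separate cultures or separate mice, so a p-value here measures only the spread between these libraries. The libraries were messenger RNA libraries made with a stranded kit. The question of the series was the route by which IFN-γ switches on Acod1, which encodes the enzyme that makes itaconate.

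Mitochondria carry their own ribosome. It translates the few messages of the mitochondrial genome, which encode core subunits of the respiratory chain and the ATP synthase. The ribosomal RNAs come from mitochondrial DNA, but every protein of the mitochondrial ribosome is encoded in the nucleus, made in the cytosol and imported. Some of these proteins descend from the ribosome of the bacterial ancestor, and others were added during the evolution of mitochondria and have no bacterial counterpart. The nuclear genes are commonly described as housekeeping genes whose promoters carry sites for NRF1, for ETS-family factors such as GABP, and for YY1. The mitochondrial ribosomal RNAs could not be set beside their proteins, since 0 features of the mitochondrial genome were listed.

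Promoter sequence is shown first, because members chosen by name alone had letters of it in common. RefSeq promoter windows of the build GRCm38.p6, from 250 bases before to 50 bases after the annotated start, were matched by symbol for 69 of the 78 members and were searched on both strands. The ETS core CCGGAAG was found in 26 of the 69 members (37.7%), against 9.93% of the 27025 genes with a window. The NRF1 palindrome with a free middle base (GCGC, any base, TGCGC) was found in 13 members (18.8%), against 5.19% of all genes. The YY1 motif searched was longer than AAGATGG, the letters with which it begins, and only matches to its full length were counted. It was found in 5 members (7.25%), against 0.755% of all genes. Shares for AAGATGG alone were not computed. At least 1 of these motifs was present in 38 members (55.1%) and in 14.5% of all genes. All members were expressed in these libraries, while the 27025 genes were not limited to expressed ones. Shares among the 12968 genes tested were not computed, so these contrasts are not shown to be particular to the members. Motifs of the interferon pathway stood at shares close to those of all genes: the GAS pattern TTCNNNGAA was in 6 members (8.7%, against 9.55%) and the ISRE pattern (GAAA, any 2 bases, GAAA) in 3 (4.35%, against 3.99%). The E-box CACGTG, the MYC and MAX motif, was in 5 members (7.25%, against 8.09%). A match is a description of letters in a window and does not show that a factor binds there.

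Below are the stretches around such a motif in the promoters of 5 members that passed the test described further on, each 5′ to 3′ on the strand of the gene, with the motif in capitals. Mrpl39 and Mrpl3 are the members that rose, and Mrpl12, Mrpl43 and Mrps26 are members that fell. Annotated exons, of any gene on either strand, covered all 250 bases before the RefSeq start of Mrpl39, so its printed stretch lies in annotated exon. They covered 135 of the 250 bases for Mrpl43, 103 for Mrps26, 29 for Mrpl3 and 24 for Mrpl12.
Mrpl39, chr16:84735350-84735379, minus strand, NRF1 motif: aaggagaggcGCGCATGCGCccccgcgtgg
Mrpl12, chr11:120484546-120484575, plus strand, NRF1 motif with C in the middle: tattgtctccGCGCCTGCGCgtcgcaccgc
Mrpl3, chr9:105053237-105053266, plus strand, ETS motif: ttgagaaacggaCCGGAAGtggcccggctg
Mrpl43, chr19:45006481-45006510, minus strand, ETS motif: ctcgcggtgactCCGGAAGcaaaactctcc
Mrps26, chr2:130563727-130563756, plus strand, ETS motif read on the other strand: tggtgctccgcggccaCTTCCGGgccgggc

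NRF1 letters stood in Mrpl39, which rose, and in Mrpl12 and Mrps26, which fell. ETS letters stood in Mrpl3, which rose, and in Mrpl43 and Mrps26, which fell. The windows of Mrpl41, Mrpl49 and Mrps6, which also fell, held neither. Whether these letters bear on the direction of change was not tested. The NRF1 motif lay from 125 to 116 bases before the annotated start of Mrpl39 and from 81 to 72 bases before that of Mrpl12, and in Mrps26, at 2 places on the other strand, it crossed or followed the start. The ETS motif lay from 19 to 13 bases before the start of Mrpl3, from 14 to 8 before that of Mrps26, and at 2 places in Mrpl43, from 56 to 50 and from 12 to 6 bases before the start. All members that passed the test except Mrps35 had a window. No GAS, ISRE or E-box letters and no full-length YY1 motif were found in these windows.

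Most mitochondrial ribosomal protein genes stayed within a narrow range after 3 h of IFN-γ. Counts were tested with edgeR's quasi-likelihood test and p-values were adjusted by the Benjamini-Hochberg method over all 12968 genes, with a gene called at an adjusted p under 0.05. Of the 78 members, 9 were called (11.5%), beside 36.4% of all genes tested. Of these, 2 rose (Mrpl39 and Mrpl3), beside 19.6% of all genes, and 7 fell (Mrps6, Mrpl41, Mrps26, Mrps35, Mrpl49, Mrpl12 and Mrpl43), beside 16.8%. Fold changes were small: the members ran from -0.47 to 0.92 in log2 fold change, 1 called member (Mrpl39) changed by at least 1.5-fold, and 0 changed by 2-fold. The median over the members was -0.08, beside -0.01 over all genes tested, with 23 members above 0 and 55 below.

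The 69 members that were not called had log2 fold changes from -0.24 to 0.14. Under TMM scaling their 95% intervals all lay inside a 1.5-fold change in either direction, from -0.55 at the lowest bound to 0.43 at the highest. The standard error of a member's log2 fold change ran from 0.06 to 0.17 with a median of 0.11, close to the median of 0.10 over all genes, and each member had 280 to 2984 counts in every library. In a bulk library, fewer cells of a type and less RNA per cell cannot be told apart.

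Levels of the 2 groups were also compared library by library, in counts scaled to the size of the library by TMM (CPM). The 3 IFN-γ libraries lay entirely above the 3 untreated ones for 4 members and entirely below for 11, together beside 50.1% of all genes (25.9% higher and 24.2% lower). Among the members that stood apart in this way but were not called, Mrps2 and Mrps27 were higher and Mrpl36, Mrpl44, Mrpl50 and Mrps5 were lower. Mrpl50 was nearest to a call, at 54.0, 58.1 and 54.6 CPM untreated and 41.6, 48.2 and 51.0 CPM with IFN-γ, a log2 fold change of -0.24 ± 0.08 (SE) with an adjusted p of 0.0513 by edgeR.

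**Figure D1:**
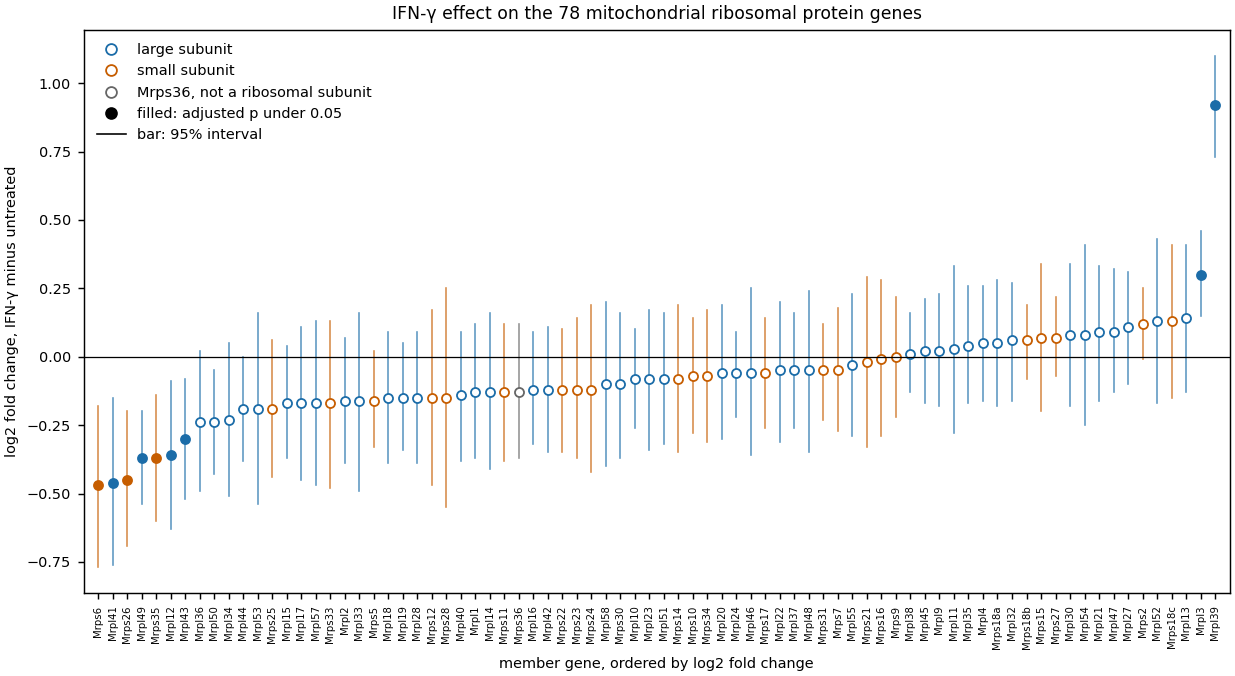
Log2 fold change, IFN-γ minus untreated, of each of the 78 members with its 95% interval, coloured by subunit and filled where the adjusted p was under 0.05. Mrpl39 at 0.92 lies above all others, and the members that were not called lie between -0.24 and 0.14.

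The largest change was in Mrpl39, a large subunit protein without a bacterial counterpart. Without treatment it was counted 1288, 1472 and 1504 times, and with IFN-γ 2587, 2700 and 2853 times. In CPM these were 42.8, 49.8 and 44.6 against 79.7, 87.9 and 91.9, so every treated library lay above every untreated library. The mean was 45.7 ± 3.63 CPM untreated and 86.5 ± 6.23 CPM treated (SD, n = 3 each). This difference was 0.92 ± 0.08 as log2 fold change (95% interval 0.73 to 1.10), or 1.89-fold, with an adjusted p of 5.13e-05 by edgeR. Mrpl39 was called under all 18 ways of processing that were run, which called between 21.2% and 47.7% of the genes they tested, at log2 fold changes from 0.75 to 0.98.

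Mrpl39 lies on the minus strand of chromosome 16 at 84515068 to 84532261, with 10 exon blocks of 3000 bases in all, as the deposited tables give it. The build of these coordinates is not named and they are not those of the RefSeq build above. The last exon, 84515068 to 84516808, holds 1741 of the 3000 bases (58.0%). On the plus strand, Mir155hg, the host transcript of the microRNA miR-155, runs from 84509911 to 84512133 toward the 3′ end of Mrpl39 and ends 2935 bases from it. This neighbour was singled out after its values were seen. Mir155hg had 18, 24 and 24 counts untreated and 1313, 1300 and 1437 counts with IFN-γ, with no overlap between groups, and rose from 0.707 ± 0.107 to 43 ± 2.98 CPM (log2 fold change 5.92 ± 0.12, adjusted p 1.14e-08 by edgeR). The use of strand in the counting is not given in the sources used here, and whether reads of transcripts from Mir155hg entered the Mrpl39 count was not tested. The other nearby genes were Jam2, a junction protein, which rose from 0.15 to 0.668 CPM (log2 fold change 2.13 ± 0.28), and Atp5j, an ATP synthase subunit, at 139 CPM in both groups (0.00 ± 0.11).

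The other member that rose was Mrpl3, which descends from the bacterial protein L3 and sits in the large subunit (chromosome 9, 104930394 to 104954665, plus strand). It had 58.4, 63.8 and 56.2 CPM untreated and 70.1, 75.7 and 74.6 CPM with IFN-γ, without overlap. Its mean was 59.5 ± 3.88 CPM untreated and 73.5 ± 2.97 CPM treated, and the log2 fold change was 0.30 ± 0.07, or 1.24-fold, with an adjusted p of 0.00799 by edgeR. The call was lost when libraries were scaled by the upper quartile (0.157, adjusted p 0.104) or by total counts (0.136, adjusted p 0.0933), and when the trend with exon length was removed (0.281, adjusted p 0.051).

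Among the large subunit proteins, Mrpl49, Mrpl41, Mrpl12 and Mrpl43 fell. Mrpl49, a protein without a bacterial counterpart (chromosome 19, 6103660 to 6107785, minus strand), had 47.7, 52.9 and 49.2 CPM untreated and 35.5, 41.0 and 39.6 CPM with IFN-γ. The groups did not overlap, and the log2 fold change was -0.37 ± 0.07 with an adjusted p of 0.00558 by edgeR. It was called under all 18 ways of processing (-0.54 to -0.32). Its exons share 89 bases (5.2%) with Syvn1, a ubiquitin ligase of the endoplasmic reticulum on the other strand, which rose by 0.28 ± 0.06 on the log2 scale.

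Mrpl41, also without a bacterial counterpart (chromosome 2, 24862482 to 24865110, minus strand), had 26.6, 37.4 and 28.9 CPM untreated and 20.2, 24.3 and 23.1 CPM with IFN-γ. All treated libraries were lower, with the untreated replicate 2 highest of all, and the log2 fold change was -0.46 ± 0.13 (adjusted p 0.0277 by edgeR). Mrpl12 forms the stalk of the large subunit, which recruits translation factors, and is also known to bind the mitochondrial RNA polymerase (chromosome 11, 120375463 to 120379580, plus strand). It had 67.1, 88.7 and 70.7 CPM untreated and 51.9, 61.5 and 62.9 CPM with IFN-γ, again with no overlap and with untreated replicate 2 highest (log2 fold change -0.36 ± 0.12, adjusted p 0.0437 by edgeR).

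Mrpl43, a further protein without a bacterial counterpart (chromosome 19, 44993453 to 44994881, minus strand), had 15.6, 19.6 and 16.9 CPM untreated and 13.6, 14.3 and 14.3 CPM with IFN-γ. The groups were apart, and the log2 fold change was -0.30 ± 0.10 (adjusted p 0.0393 by edgeR). Its exons share 385 bases (31.7%) with Twnk, the helicase that unwinds mitochondrial DNA, on the other strand. Twnk fell by 0.60 on the log2 scale, at a mean of 210.2 counts over all libraries beside 490.3 for Mrpl43, and whether reads of the shared stretch were split between these genes was not tested.

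The small subunit members that fell were Mrps6, Mrps26 and Mrps35. Mrps26, without a bacterial counterpart (chromosome 2, 130405677 to 130407314, plus strand), had 31.5, 41.1 and 32.3 CPM untreated and 24.3, 26.6 and 26.1 CPM with IFN-γ. The groups did not overlap, the log2 fold change was -0.45 ± 0.11 (adjusted p 0.0127 by edgeR), and the call held under all 18 ways of processing (-0.61 to -0.32). Mrps35, likewise without a bacterial counterpart (chromosome 6, 146944231 to 146972402, plus strand), had 19.0, 21.7 and 17.2 CPM untreated and 13.9, 15 and 15.8 CPM with IFN-γ, without overlap (log2 fold change -0.37 ± 0.10, adjusted p 0.0198 by edgeR).

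Mrps6 descends from the bacterial protein S6 on the platform of the small subunit (chromosome 16, 91855224 to 91909115, plus strand). It had 11.5, 15.7 and 12.8 CPM untreated and 8.63, 10.4 and 9.83 CPM with IFN-γ, without overlap between groups. The log2 fold change was -0.47 ± 0.13 with an adjusted p of 0.0206 by edgeR. Its exons share 145 bases (18.6%) with Slc5a3, the myo-inositol transporter gene on the same strand. Slc5a3 fell by 0.88 on the log2 scale (SE 0.12), at a mean of 118.5 counts beside 358.3 for Mrps6, and the share of reads common to these genes was not tested.

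**Figure D2:**
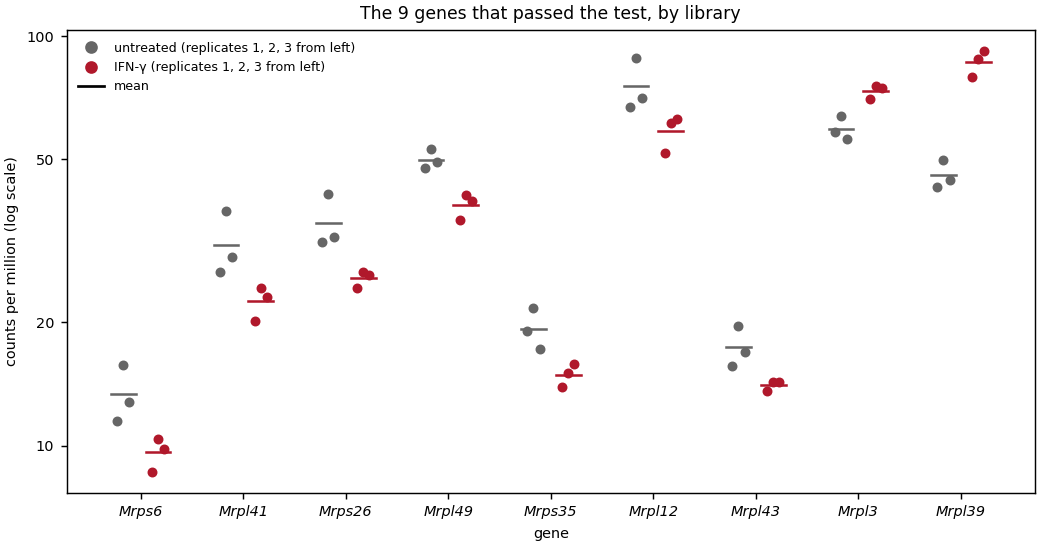
Level in CPM (log axis) of the 9 called members in each library, with points for the replicates in grey (untreated) and red (IFN-γ) and a line at the group mean. For each gene the 3 treated libraries lie entirely on 1 side of the 3 untreated libraries, and Mrpl39 shows the widest gap.

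Of the 7 calls toward lower levels, 2 (Mrps26 and Mrpl49) held whichever library was left out. Dropping replicate 1, 2 or 3 of the IFN-γ group left 2, 3 or 4 members that fell, and dropping an untreated library left 5 to 7. Over all genes, 28.8%, 26.2% or 26.9% were called on dropping treated replicate 1, 2 or 3, and 33.1%, 45.2% or 28.2% on dropping untreated replicate 1, 2 or 3. Mrpl12 and Mrpl43 lost their call on dropping untreated replicate 3 or any treated library, while their log2 fold changes kept their sign.

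Set out by subunit, 51 members belong to the large subunit, where 2 rose and 4 fell with a median log2 fold change of -0.08. The small subunit has 26, where 0 rose and 3 fell, with the same median of -0.08. Over all genes tested, 19.6% rose and 16.8% fell. No small subunit member was higher at an unadjusted p under 0.05 in edgeR, and DESeq2 and limma-voom, which called 34.7% and 36.3% of all genes, also called 0 of them higher. Dropping untreated replicate 2 raised the number called higher from 2 to 8 in the large subunit and from 0 to 1 in the small one. In the small subunit, 4 were then higher at an unadjusted p under 0.05 in edgeR. The share of all genes called higher was then 24.0%. With the length trend removed, 2 small subunit members were called higher, beside 25.8% of all genes. In the large subunit, 1 fell on dropping treated replicate 1 or 2, and 2 on dropping replicate 3 of either group. In the small subunit, 1 fell on dropping treated replicate 1, and 2 on dropping treated replicate 2 or 3. In this division Mrps18a and Mrps30 count with the large subunit, where structures place them in spite of their names.

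Set out by descent, 48 members have a bacterial counterpart, of which 1 rose and 2 fell (6.25% called, median -0.06). The 29 without one included 1 that rose and 5 that fell (20.7% called, median -0.12). Both shares lay under the 36.4% over all genes, and the difference between the kinds of protein was not tested. The remaining member, Mrps36, is now known as a subunit of the 2-oxoglutarate dehydrogenase complex rather than of the ribosome. It had 33.3, 43.5 and 36.1 CPM untreated and 32.1, 34.1 and 37.1 CPM with IFN-γ, overlapping ranges, at a log2 fold change of -0.13 ± 0.11 (adjusted p 0.394 by edgeR).

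The paralogs Mrps18a, Mrps18b and Mrps18c, related copies of the bacterial protein S18, were not called. Mrps18b was the steadiest, at 31.7, 32.1 and 32.8 CPM untreated and 32.9, 34.7 and 32.8 CPM with IFN-γ (log2 fold change 0.06 ± 0.06). Mrps18a had 41.8, 53.8 and 43.7 CPM untreated and 45.7, 48.0 and 50.7 CPM with IFN-γ (0.05 ± 0.10). Mrps18c had 60.5, 85.8 and 68.2 CPM untreated and 72.5, 80.0 and 81.8 CPM with IFN-γ (0.13 ± 0.12). Untreated replicate 2 was the highest of the 6 libraries for Mrps18a and Mrps18c, and upper quartile scaling, which moved the median of all genes to -0.161, put all 3 paralogs below 0 (-0.097, -0.092 and -0.021 for Mrps18a, Mrps18b and Mrps18c). Without untreated replicate 2 both Mrps18a and Mrps18c were called higher (0.17 and 0.28).

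Mrps30, a large subunit protein despite its symbol, had 27.9, 36.8 and 27.7 CPM untreated and 27.4, 29.0 and 29.6 CPM with IFN-γ (log2 fold change -0.10 ± 0.11). Mrpl58, a peptidyl-tRNA hydrolase that releases stalled chains and is also built into the large subunit, had 22.8, 31.5 and 25.0 CPM untreated and 21.6, 26.1 and 26.0 CPM with IFN-γ (-0.10 ± 0.13). In both genes the groups overlapped and untreated replicate 2 was the highest library, and without it their log2 fold changes were 0.045 and 0.039.

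That library stood apart for nearly the whole family. Untreated replicate 2 was the highest of the 6 libraries for 71 of the 78 members, and IFN-γ replicate 1 was the lowest for 48. Against the mean of the other untreated replicates, replicate 2 was higher for 77 of 78 members, by a median of 0.30 on the log2 CPM scale (range -0.01 to 0.53). Over all genes tested the same difference was above 0 for 6230 of 12968, with a median of -0.02. Mrpl33, with 466 bases of exons, showed the widest gap at 0.528, and Mrps18b showed -0.006.

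Short genes were higher in that library. Over all genes tested, the Spearman coefficient between exon length and the difference of replicate 2 from its group was -0.59 (Pearson -0.46 against log2 length). Over the 78 members, whose exon length ran from 412 to 8707 bases with a median of 1580, it was -0.38 (Pearson -0.34). These are coefficients across genes, which are not independent replicates. The 39 shorter members had a median difference of 0.35 and the 39 longer ones 0.28, so longer members were also above the other untreated libraries. Within the shorter members the Spearman coefficient for replicate 2 was -0.62, and within the longer ones 0.13. For the log2 fold change with IFN-γ, the Spearman coefficient with length was 0.04 over all members. It was -0.22 within the shorter members and -0.07 within the longer ones.

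**Figure D3:**
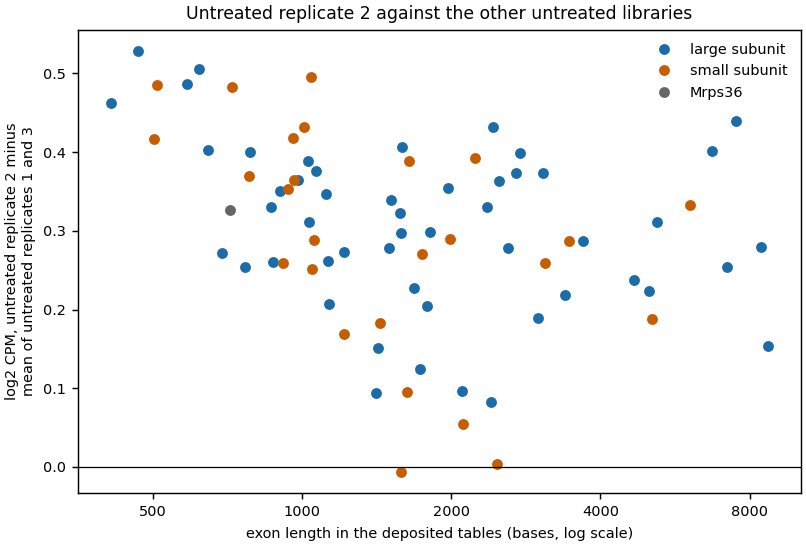
Difference of untreated replicate 2 from the mean of untreated replicates 1 and 3, on the log2 CPM scale, against exon length in bases (log axis) for the 78 members, coloured by subunit. The members lie between -0.01 and 0.53, with 77 of 78 above 0.

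The summed level of the members was 2923, 3687 and 3029 CPM in the untreated libraries and 2859, 3199 and 3258 CPM with IFN-γ. The groups overlapped, and only replicate 2 of the untreated libraries exceeded all treated ones. As a share of all counts the members made up 0.313%, 0.38% and 0.328% untreated and 0.271%, 0.301% and 0.306% with IFN-γ, before TMM scaling. The protein genes of the cytosolic ribosome showed the same library highest, at 44046, 59512 and 46400 CPM untreated and 44677, 50888 and 51257 CPM with IFN-γ, as did complex I of the respiratory chain, at 2852, 3769 and 2948 CPM against 2914, 3246 and 3313 CPM.

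Leaving out untreated replicate 2 raised the number of members called higher from 2 to 9, while 7 were called lower as before. All 9 members called with 6 libraries remained called. The 7 gained, all higher, were Mrpl52 (0.30), Mrpl13 (0.29), Mrps18c (0.28), Mrpl54 (0.26), Mrpl21 (0.21), Mrpl27 (0.20) and Mrps18a (0.17 in log2 fold change). The median over the members moved from -0.08 to 0.034. Over all genes, 24.0% were then called higher and 21.1% lower. What set this library apart was not tested.

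The scaling of libraries moved the count that fell more than any single library did. With total counts alone 1 member was higher and 34 were lower, beside 12.8% and 34.9% of all genes, and the median was -0.248 over the members and -0.184 over all genes. With upper quartile scaling 1 was higher and 18 were lower, beside 13.9% and 31.6%, with medians of -0.229 and -0.161. So 34 of 78 and 18 of 78 members fell under these scalings, and 7 of 78 under TMM. With the length trend removed 5 were higher and 10 lower, beside 25.8% and 20.2% of genes. At a threshold of 0.01, 2 members were higher and 1 lower, beside 13.8% and 9.58%.

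**Figure D4:**
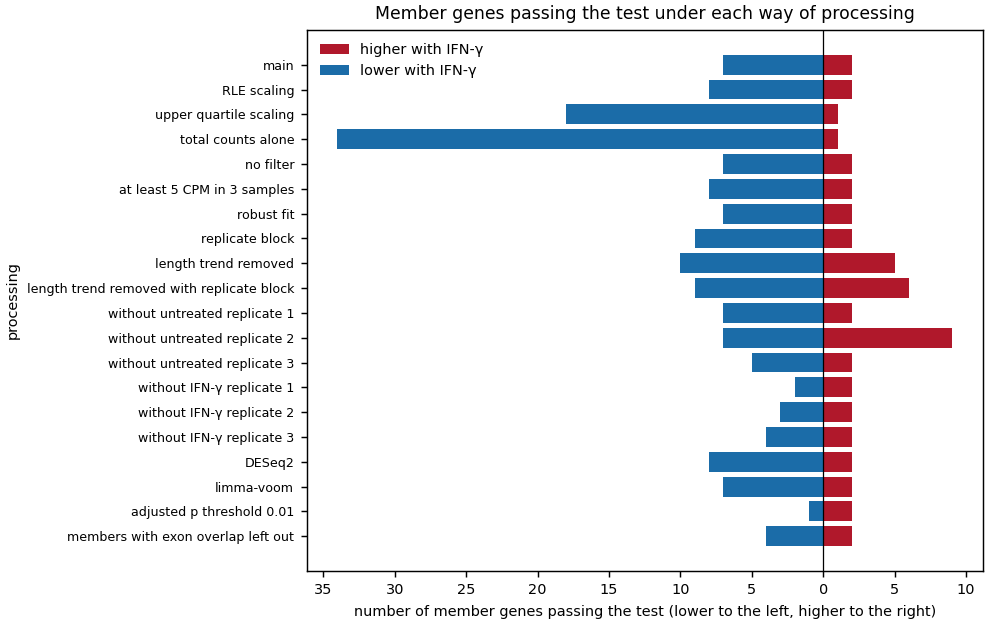
Number of members called higher (bars to the right of 0) and lower (bars to the left) under each way of processing, with the reported fit at the top. The lower side runs from 1 at a threshold of 0.01 to 34 with total counts alone, and the higher side from 1 to 9 without untreated replicate 2.

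Levels can be compared between genes only per length, as in TPM, the count per exon length scaled to the library. In untreated cells the members ranged from 9.34 to 363 mean TPM, a ratio of 38.9, with a median of 51.1. Mrpl33 was highest with 326, 422 and 341 TPM untreated and 292, 298 and 312 TPM with IFN-γ. Mrps18c followed at 308 ± 33.9 TPM untreated, then Mrpl52 at 267 ± 30.4, Mrps21 at 257 ± 31.9 and Mrpl42 at 230 ± 9.97 (SD, n = 3). All of these are small proteins from short transcripts.

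The lowest levels belonged to Mrpl4 at 9.34 ± 0.61 TPM, Mrpl14 at 9.76 ± 1.02 and Mrps25 at 12.7 ± 0.9. In this order most neighbours could not be separated: for 70 members the range over the untreated libraries overlapped that of the next member down. TPM also followed the annotated exon length across the members (Spearman -0.81, Pearson of the log2 values -0.87, n = 78). The tables give 8452 exon bases to Mrpl4 and 7525 to Mrpl14, against 466 to Mrpl33. Length enters TPM as a divisor, and how much of each annotated exon was transcribed in these cells was not tested.

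Further lists held the remaining protein genes of the mitochondrial ribosome, which carry other symbols, and the factors that build and serve it. In the reported fit their calls were toward lower levels, while some other ways of processing also called genes higher, as given below. Of Dap3, Chchd1, Aurkaip1, Ptcd3 and Gadd45gip1, 1 fell (20.0%, beside 36.4% of all genes called and 16.8% lower), so the share was close to that over all genes. It was Gadd45gip1, which went from 22.2 ± 2.83 to 17.7 ± 1.65 CPM (log2 fold change -0.33 ± 0.11, adjusted p 0.0489 by edgeR). That call was lost on dropping untreated replicate 1 or treated replicate 1 or 2. The median of the 5 was -0.12.

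Of 17 mitochondrial translation factors tested, 3 fell and 0 rose (17.6% called, beside 36.4% of all genes called and 16.8% lower, median -0.11), so the share that fell was close to that over all genes. Pdf, which removes the formyl group from new mitochondrial proteins, had 22.1, 27.8 and 24.8 CPM untreated and 16.2, 19.0 and 18.2 CPM with IFN-γ, with no overlap (log2 fold change -0.48 ± 0.10, adjusted p 0.00677 by edgeR). Oxa1l, which inserts new proteins into the inner membrane, fell by 0.20 (SE 0.05) and Guf1, an elongation factor-like GTPase, by 0.22 (SE 0.07) on the log2 scale. The count was 1 on dropping untreated replicate 3 or treated replicate 1 or 3.

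Of 26 genes for assembly of the mitochondrial ribosome and modification of its RNA, 6 fell and 0 rose (23.1% called, beside 36.4% of all genes called and 16.8% lower, median -0.12). Mrm1, which methylates the large ribosomal RNA, had 13.6, 18.8 and 16.4 CPM untreated and 10.1, 9.83 and 10.7 CPM with IFN-γ, with no overlap (log2 fold change -0.67 ± 0.12, adjusted p 0.00301 by edgeR). Noa1, a GTPase of small subunit assembly, fell from 19.0 ± 0.801 to 13.8 ± 0.677 CPM (-0.46 ± 0.07). Mrm2, another methyltransferase of the large ribosomal RNA, fell from 7.17 ± 0.638 to 5.25 ± 0.419 CPM (-0.45 ± 0.10), and Rbfa, a small subunit maturation factor, from 20.7 ± 0.546 to 15.7 ± 0.876 CPM (-0.40 ± 0.07). This count was 6 or 7 whichever library was left out.

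Of 20 genes for mitochondrial aminoacyl-tRNA synthetases and the glutamyl-tRNA amidotransferase, which charge the tRNAs, 8 fell and 0 rose (40.0% called, beside 36.4% of all genes called and 16.8% lower, median -0.18). Pars2, the prolyl-tRNA synthetase, fell from 6.54 ± 0.42 to 4.63 ± 0.406 CPM (-0.50 ± 0.10 on the log2 scale). Vars2 fell by 0.40 and Gatc, an amidotransferase subunit, by 0.36 on the log2 scale. The count was 5 on dropping treated replicate 1 or 2, and 4 on dropping treated replicate 3. Lars2, singled out after its values were seen, had 23588, 3275 and 2643 counts untreated and 6387, 2292 and 3013 with IFN-γ, so the first replicate of each group was far above the others and no call was made (-1.40 ± 0.82, adjusted p 0.228 by edgeR).

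In none of these lists of 5, 17, 26 and 20 genes did the reported edgeR fit, DESeq2 or limma-voom call a gene higher. At an unadjusted p under 0.05, the reported fit had 0, 0, 1 and 1 higher, in the same order. With the length trend removed, edgeR called 2 assembly genes and 1 synthetase gene higher, beside 25.8% of all genes. Without untreated replicate 2 it called 1 synthetase gene higher, beside 24.0%. These lists were chosen with earlier results of these data known. With total counts alone 3, 12, 15 and 15 fell, beside 34.9% of all genes, and with upper quartile scaling 2, 10, 12 and 14, beside 31.6%. The median over all genes was -0.184 and -0.161 under these scalings, so genes outside the lists shifted as well.

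Of 22 genes for upkeep and transcription of mitochondrial DNA and processing of its RNA, 1 rose and 5 fell (27.3% called, beside 36.4% of all genes, median -0.15). The gene that rose was Pnpt1, the mitochondrial polynucleotide phosphorylase that degrades RNA, at 49.2, 47.5 and 50.6 CPM untreated and 65.5, 70.2 and 70.9 CPM with IFN-γ (log2 fold change 0.49 ± 0.06, adjusted p 0.000345 by edgeR). Twnk, described above for its overlap with Mrpl43, fell from 8.08 ± 0.819 to 5.35 ± 0.231 CPM. Prorp and Trmt10c, subunits of the RNase P that frees tRNAs from mitochondrial transcripts, fell by 0.48 (SE 0.09) and 0.39 (SE 0.07). The number that rose was 2 on dropping untreated replicate 2 or treated replicate 1. With total counts alone, and with upper quartile scaling, 13 fell, beside 34.9% and 31.6% of all genes.

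The protein genes of the cytosolic ribosome and of complex I served as a comparison with other large sets of nuclear genes for complexes. Of 77 cytosolic ribosomal protein genes and 38 complex I genes, 0 were called by edgeR, beside 36.4% of all genes. In both sets 0 were at an unadjusted p under 0.05 in edgeR, and 0 were called by DESeq2 or limma-voom. Their medians were -0.03 and -0.02. Without untreated replicate 2, 6 of the 77 and 9 of the 38 were called, all higher, beside 24.0% of all genes called higher. The complex I share was close to that over all genes, and the cytosolic share lay under it.

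Of 10 tested regulators known for nuclear genes of mitochondria, 4 rose and 1 fell (5 of 10 called, beside 36.4% of all genes called, 19.6% higher and 16.8% lower, median 0.16). Ppargc1b, the coactivator PGC-1β, had 2.56, 1.66 and 2.22 CPM untreated and 7.52, 6.35 and 5.83 CPM with IFN-γ (log2 fold change 1.61 ± 0.17, adjusted p 0.00014 by edgeR), while Ppargc1a, with 0, 0 and 0 counts untreated and 2, 0 and 1 with IFN-γ, was too low to test. Max, the partner of MYC, rose from 111 ± 8.48 to 190 ± 4.42 CPM (0.77 ± 0.07).

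Esrra, the nuclear receptor ERRα, rose by 0.35 (SE 0.06), and Gabpa, the ETS-family subunit of GABP, by 0.32 (SE 0.06), the latter without a call under total counts alone (0.151, adjusted p 0.118). Myc, an E-box factor of growth, fell by 0.28 on the log2 scale (SE 0.05). Nrf1 had 25.2, 22.5 and 22.6 CPM untreated and 25.3, 26.8 and 27.2 CPM with IFN-γ, which did not overlap, at a log2 fold change of 0.18 ± 0.07 (adjusted p 0.0961 by edgeR). The number that fell was 2 without untreated replicate 2.

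**Figure D5:**
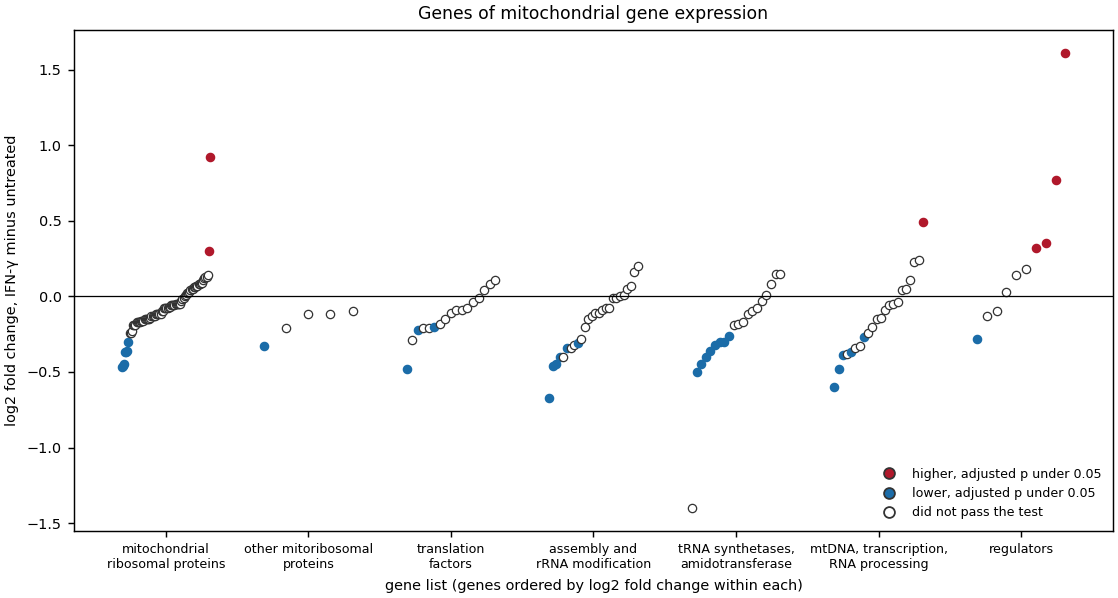
Log2 fold change of each tested gene in the members and in 6 lists of genes for mitochondrial gene expression, ordered within each list, with filled points for called genes. The synthetase and assembly lists hold called genes below 0 only, and the regulators reach 1.61 (Ppargc1b).

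Many members share a start region with another gene. Within 1000 bases, 29 members had a neighbour that starts on the other strand and runs the other way. Mrpl46 and Mrps11, from the large and the small subunit, start 42 bases apart and had log2 fold changes of -0.06 and -0.13. Some such neighbours were called while the member was not: Mitd1, beside Mrpl30 (28 bases apart), rose by 0.77, and Klc4, a kinesin light chain beside Mrpl2 (21 bases), fell by 0.72. Of all genes tested, 36.4% were called, so such calls alone do not set these neighbours apart. For the called members, Fau, which encodes a cytosolic ribosomal protein fused to a ubiquitin-like protein and starts 192 bases from Mrpl49, had -0.10 ± 0.14. Pnpla7, a lysophospholipase that starts 125 bases from Mrpl41, had 0.00 ± 0.11. The transcript 4930473A02Rik, which starts 8 bases from Mrps26, had -0.32 ± 0.19 and was not called (adjusted p 0.224 by edgeR). These neighbours were picked after their values were seen.

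Reads of some members could be shared with other genes. Exons of 22 members overlap those of another listed gene, by at least 10% of the member's exons for 7, and 21 members share at least 10% of their 50-base words with another annotated gene, such as a pseudogene. Among the called members this shared part was 31.6% for Mrpl43, 17.3% for Mrps6, 11.3% for Mrpl41, 8.8% for Mrpl12 and 5.2% for Mrps26. With the 22 overlapping members left out, 2 of the rest rose and 4 fell. How the authors' counting treated such reads is not given in the sources used here.

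The treatment labels and the cell type held in the libraries. Irf1, Gbp2, Socs1 and Cxcl10, known to be induced by IFN-γ, rose by 4.83, 7.04, 4.94 and 6.47 on the log2 scale. Unlike the CPM values above, all marker sums in this paragraph were scaled by total counts alone, without TMM. The 7 macrophage markers summed to 20411 to 21524 CPM untreated and 19218 to 20204 CPM with IFN-γ. TMM factors ran from 1.03 to 1.082 untreated and from 0.9381 to 0.9487 with IFN-γ. Differences between groups in these sums therefore depend on the scaling, and the lower macrophage sums with IFN-γ are not read as a fall. Summed markers of B cells, T and NK cells, mast cells and red cells stayed at or under 0.257 CPM in every library, with Cd3e at 0 throughout, and the 4 fibroblast markers reached 1.08 CPM. Neutrophil markers summed to 75.4 to 96.7 CPM untreated and 114 to 125 CPM with IFN-γ, dendritic cell markers to 1.57 to 1.95 and 4.14 to 4.8 CPM, and the 2 megakaryocyte markers, Pf4 and Itga2b, to 818 to 1132 and 690 to 750 CPM. Whether other cells or the macrophages themselves gave these sums was not tested, so the sums do not count cells of these types. Any part of other cells in the changes of the members was not tested either.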

How the data were processed

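RNA was sequenced from 6 libraries, 3 per group. Reads were aligned with HISAT2, with mm10 as the build, per the submitters' processing notes. Versions, the counting tool and whether it used strand are stated in none of the sources used here. Each deposited table holds a count, a TPM and an FPKM value for each gene, per the file headers. The deposited counts, whole and without normalization, were the values tested. Deposited TPM, which the counts and lengths gave back within 1.1e-13 (relative difference), served for levels between genes, and the deposited FPKM was not used. Of 78 members, 1 has the same start and end in RefSeq's GRCm38.p6, so table coordinates are printed with the build unnamed. Total counts ran from 28133342 to 34233607. A count of 3 corresponds to 0.089 to 0.101 CPM per library, and such floors cover counting error only.

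Genes were kept by filterByExpr (minimum count 10, minimum total 15), scaled by TMM and tested two-sided with edgeR 4.0.16 (glmQLFit, glmQLFTest) in R 4.3.3, with p-values adjusted by Benjamini-Hochberg over 12968 genes and called under 0.05. The common biological coefficient of variation was 0.089. SE is the standard error of the fit. On simulated counts for 12776 genes of this comparison, 85% of 100 genes changed by 1.5-fold and 100% of 100 changed by 2-fold were called, with 14 false among 199 calls. The changed genes were drawn above 5 CPM, with noise independent between genes and no library set apart. They were a far smaller part of the genes than the 36.4% called in the data. These shares therefore do not give the power or false calls of the real comparison. Alternatives used RLE, upper quartile or total count scaling, other filters (none, or 5 CPM in 3 libraries), a robust fit, a replicate block, removal of the exon length trend (lowess, span 0.5), each library left out, DESeq2 1.42.0, limma-voom 3.58.1 and a threshold of 0.01. Chi-square per degree of freedom between replicates of a group was 2.06 to 82, above sampling noise for each pair.

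The members and the gene lists were chosen with earlier results of these data known. Named were the called members, the 5 highest and 3 lowest in TPM, the Mrps18 paralogs, Mrps30, Mrps36, Mrpl12 and Mrpl58, members whose call changed with a library or the scaling, and up to 4 called genes per list. Subunit and descent of each member were assigned by hand from general knowledge of the ribosome's structure. No test was made over the members as a set. Some items are not reported here.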

Additional observations from a re-analysis of the deposited data

How the results depend on the processing

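Log2 fold changes of the named genes kept their sign and their side of the threshold for 543 values, and of the rest 37 lost and 5 gained a call. The 10 that turned were Mrps18a, Mrps18b and Mrps18c with upper quartile scaling (-0.097, -0.092, -0.021) and with total counts (-0.116, -0.115, -0.039), Mrps18a on leaving out a library (-0.018 and -0.001, in a range of -0.018 to 0.169), and on leaving out untreated replicate 2 Mrps30 (0.045, range -0.185 to 0.045) and Mrpl58 (0.039, range -0.198 to 0.039). With 3 libraries a group, effects under 1.5-fold are called only in part. The causes of the changes below were not tested, apart from fewer genes or libraries where these are left out.

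Upper quartile and total count scaling moved the median of all genes to -0.161 and -0.184. With upper quartile scaling, 1 member was higher and 18 lower (large subunit 1 and 13, small subunit 5 lower), with medians of -0.229 (all), -0.228 (large) and -0.224 (small). Of the other lists, 2 proteins with other symbols, 10 translation factors, 12 assembly genes, 14 synthetase genes, 13 mitochondrial DNA and RNA genes and 2 regulators were lower. With total counts, 1 member was higher and 34 lower (large 1 and 21, small 12 lower), with medians of -0.248, -0.249 and -0.244, and the lists in that order had 3, 12, 15, 15, 13 and 2 lower. With the length trend removed, 5 members were higher, 7 large subunit members were lower and 2 small subunit members higher; 2 proteins with other symbols were lower, and 2 assembly, 1 synthetase and 3 DNA and RNA genes higher. At a threshold of 0.01, 1 member was lower (large 1, small 0). Without overlapping members, 4 were lower (large 2).

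The labels state no pairing of libraries by replicate number. Deviations from the group mean correlated at 0.306, 0.144 and -0.07 for equal numbers, and at -0.34 to 0.241 for unequal ones. The highest coefficient was that of the replicate 1 pair, but not every library correlated best with its own number. Deviations within a group sum to 0, so these coefficients depend on each other and cannot settle whether the numbers pair the libraries. With the replicate block 2 members were higher and 9 lower (Mrpl36 and Mrpl50 gained), and 2 DNA and RNA genes were higher and 8 lower. With the length trend removed together with the replicate block, 6 members were higher (large 4, small 2), 2 proteins with other symbols and 5 translation factors were lower, 1 assembly gene was higher, and 3 DNA and RNA genes were higher and 8 lower. Over all genes, the replicate block called 21.0% higher and 17.9% lower, and with the length trend removed as well 26.2% and 20.6%.

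Leaving out 1 library at a time gave 2 to 9 members higher and 2 to 7 lower, 2 to 8 higher and 1 to 4 lower in the large subunit, and 0 to 1 higher and 1 to 3 lower in the small one. The lists ran from 0 to 1 lower (other symbols), 1 to 3 lower (translation), 0 to 1 higher and 4 to 8 lower (synthetases), 1 to 2 higher (DNA and RNA) and 1 to 2 lower (regulators). The ratio of summed levels, 0.966 with all libraries, ran from 0.925 to 1.043.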
